A study of Mus musculus with 3 samples.

Results

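*Iapp*, *Ppy*, *Pyy*, *Npy* and *Ghrl* encode peptide hormones or neuropeptides that islet cells make beside insulin, glucagon and somatostatin. They were taken by name and are 5 of the 17226 genes listed over the 3 single cell libraries of this study, which followed mouse islets after inactivation of *Taf4* in beta cells. *Ghrl* had no row in the 1-week count table and was read as 0 there. The WT library came from 300 islets of 1 mouse labelled wild type. Each mutant library came from 300 islets pooled from 2 mice labelled TAF4 KO, taken 1 week or 5 weeks after inactivation. All animals were adult, of strain C57/Bl6 and labelled male. By the study's methods the mutants carried floxed *Taf4* alleles and a transgenic, tamoxifen-inducible Cre driver named for *Ins1*, meant to act in beta cells, and inactivation was induced by tamoxifen. The WT labels do not say whether that animal carried the Cre driver or received tamoxifen. There was 1 library per condition, so no difference between conditions could be tested, and every interval given here is a 95% interval for counting error only.

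Amylin, the product of *Iapp*, is stored in beta cell granules and released with insulin, and delta cells of the mouse also make it. Pancreatic polypeptide (*Ppy*), peptide YY (*Pyy*) and neuropeptide Y (*Npy*) are related peptides that act on the family of Y receptors. *Ppy* marks the PP cells of the islet, *Pyy* is made by PP cells and by alpha and delta cells of the mouse, and *Npy* is best known as a neuropeptide of the brain. Ghrelin (*Ghrl*) is the hormone of the rare epsilon cells. Taf4 is a subunit of TFIID, the general transcription factor that binds core promoters at and around the TATA box.

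Because TFIID acts at core promoters, the 60 bases upstream of each gene's annotated start are shown, 5′ to 3′ on the gene's own strand (RefSeq, GRCm38.p6). Capitals mark a TATA-like motif, searched as TATAAA or TATATA and, more loosely, as ATAAA or ATATAA, and *Ghrl* held none of them.
Iapp: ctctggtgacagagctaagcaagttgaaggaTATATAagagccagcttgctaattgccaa
Ppy: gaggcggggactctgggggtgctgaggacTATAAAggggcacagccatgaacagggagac
Pyy: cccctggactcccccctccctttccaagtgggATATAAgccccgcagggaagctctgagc
Npy: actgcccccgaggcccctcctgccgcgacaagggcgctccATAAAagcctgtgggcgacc
Ghrl: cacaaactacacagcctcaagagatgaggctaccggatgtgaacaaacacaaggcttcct

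The windows lie at chr6:142298365-142298424 (*Iapp*, plus strand), chr11:102101320-102101379 (*Ppy*, minus strand), chr11:102107833-102107892 (*Pyy*, minus strand), chr6:49822650-49822709 (*Npy*, plus strand) and chr6:113719912-113719971 (*Ghrl*, minus strand). The first base of the motif lay 29 bases upstream of the start for *Iapp*, 31 for *Ppy*, 28 for *Pyy* and 20 for *Npy*. TATAAA or TATATA stood in the same 60 bases of 4.06% of 32851 promoters on the gene's strand and of 5.01% on either strand. The looser letters, of which ATAAA is contained in TATAAA, stood in 8.47% on the gene's strand and in 13.1% on either strand. RefSeq lists 2 starts for *Pyy* and 4 for *Ghrl*, of which 1 each is shown. *Ppy* and *Pyy* are neighbours, with 5356 bases and 0 annotated genes between them. A match of letters is a description of the window and does not show that TFIID binds there.

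Cells were placed in classes by the share of their transcripts (unique molecular identifiers, UMIs) from *Ins2*, *Gcg* and *Sst*, and the members took no part in this. In WT and at 5 weeks a beta cell had 20% or more *Ins2* and under 3% *Gcg*, an alpha cell 15% or more *Gcg* and under 10% *Ins2*, and a delta cell 5% or more *Sst* and under 5% *Gcg*. At 1 week the lower limits were 5% *Ins2*, 8% *Gcg* and 1.5% *Sst*, in cells of 5000 UMIs or more. This gave 8269 beta, 2772 alpha and 619 delta cells in WT, 561, 172 and 37 at 1 week, and 5557, 3011 and 1214 at 5 weeks. All genes of the beta, alpha and delta marker lists had UMIs in their own class in every library. These lists include *Ins2*, *Gcg* and *Sst*, and all 9 beta genes also had UMIs in WT alpha and delta cells. The presence of a UMI therefore does not tell the classes apart. Levels are UMIs of a gene per 1000000 UMIs of the class (CPM). Each UMI counts the 3′ end of 1 molecule, so levels of different genes were not divided by length.

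The 3 libraries differed in ways that bear on every comparison below. They held 2295 to 12000 barcodes and 19472212 to 39408284 UMIs, and median UMIs per beta cell were 1656 in WT, 24764 at 1 week and 3899 at 5 weeks. No WT barcode had more than 1500 genes, while 876 of the 2295 barcodes at 1 week did. Doublets and cells with mixed hormones were removed by the authors from the WT library only, and 2, 1 and 128 cells met 2 class definitions in WT, at 1 week and at 5 weeks and were left out. *Xist*, transcribed from the inactive X chromosome of females, had 17357 UMIs in WT against 17 and 11 in the mutants, and the Y-linked *Ddx3y* had 0 against 1488 and 1349, so the library labelled WT goes against its male label. The targeted gene *Taf4* had 75, 113 and 97 UMIs in beta cells (4.68, 7.55 and 3.52 CPM), but these are 3′ tags that may lie outside the deleted part. Libraries shared at most 33 cell barcodes. Sex, depth and cell filtering therefore cannot be told apart from the *Taf4* genotype in any value given here.

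*Iapp* was the most abundant member and was lower in mutant than in WT beta cells at both times. In WT its level was 86339 CPM in beta, 55461 CPM in delta and 7279 CPM in alpha cells. At 1 week it was 33495 CPM in beta, 45300 CPM in delta and 1279 CPM in alpha cells, so that delta cells ranked above beta cells. At 5 weeks it was 60440 CPM in beta, 40738 CPM in delta and 6500 CPM in alpha cells, which is the order seen in WT. In beta cells the level thus fell between WT and 1 week and lay between these values at 5 weeks. The log2 ratio of the *Iapp* level to WT was −1.37 at 1 week and −0.51 at 5 weeks in beta cells. With cells limited to the 200 to 1500 genes that the WT cells span, which left 17 beta cells at 1 week, the 1-week value was −4.08. In delta cells, which the driver is not meant to target, it was −0.29 and −0.45. The counting intervals of these levels do not overlap, since each rests on 24317 UMIs or more, but the spread between animals is unknown.

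The level of *Iapp* in alpha cells could not be read as expression in WT. Dissociated islets release RNA that is caught in droplets with other cells, and 64 WT cells with acinar markers, which should lack *Iapp*, had 18163 CPM, above the 7279 CPM of alpha cells. These acinar cells also held 161 *Ins2* UMIs per cell against 22.9 in alpha cells, and 34.3 *Gcg* UMIs per cell against 3.58 in beta cells. They may therefore overstate the background of the other WT cells. A UMI of *Iapp* was found in 93.8% of these acinar cells at a median of 1906 UMIs and in 97.9% of alpha cells at a median of 763 UMIs. At 1 week, 17 cells with macrophage markers had 765 CPM at a median of 789 UMIs, and at 5 weeks 173 cells with endothelial markers had 3130 CPM at a median of 1199 UMIs, both below the alpha cells of the same library. The log2 ratios of *Iapp* in alpha cells, −2.51 at 1 week and −0.16 at 5 weeks, therefore start from a WT level below that of the acinar cells. How much of that WT level was background could not be told.

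**Figure D1:**
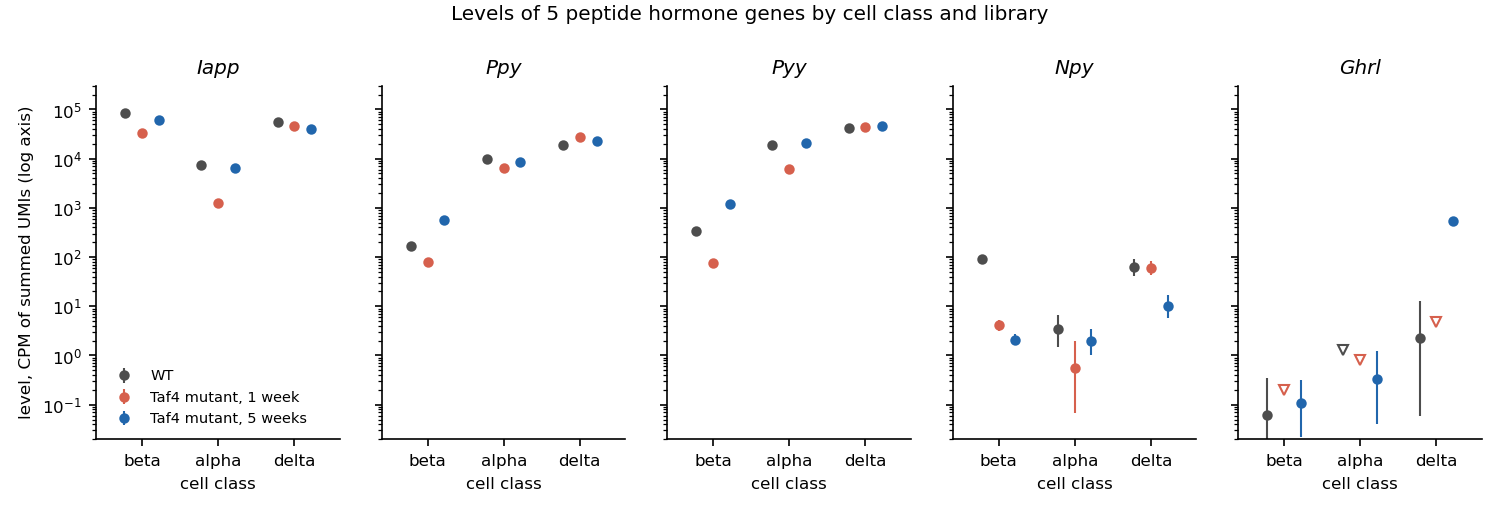
Level of the 5 members (CPM, log axis) in beta, alpha and delta cells of the WT, 1-week and 5-week libraries, with 95% counting intervals as bars and triangles at the limit of 3 counts where the count was 0. *Iapp* is highest in beta or delta cells, *Ppy* and *Pyy* are highest in delta cells of every library, and *Npy* in beta cells drops from 90.4 CPM in WT to 4.14 and 2.10 CPM in the mutants.

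*Iapp* and the insulin genes changed to different extents. WT beta cells held 0.197 (0.197–0.198) UMIs of *Iapp* per UMI of *Ins2*, those at 1 week 0.0915 (0.0912–0.0917) and those at 5 weeks 0.105 (0.105–0.105). The ratio to *Ins1* moved the other way, from 0.562 in WT to 1.18 at 1 week and 2.68 at 5 weeks. *Ins1* was at 153543 CPM in WT beta cells and at 28406 and 22586 CPM in the mutants, while *Ins2* was at 437651, 366145 and 576963 CPM. The *Ins2* share is part of the beta rule, with a limit of 5% at 1 week and 20% in the other libraries, so the *Ins2* levels and the ratios built on them are in part set by these limits.

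Ratios to *Ins2* also differed between classes, which were themselves defined with limits on *Ins2* for beta and alpha cells. Cells that met both the beta and the delta definition were left out, which limited *Ins2* in delta cells too. At 5 weeks the 128 such cells held 333868 CPM *Ins2*, against 59324 CPM in the delta class. The part of this step in the delta ratios was not tested. Delta cells held 1.33 *Iapp* UMIs per *Ins2* UMI in WT, 7.87 at 1 week and 0.687 at 5 weeks. Alpha cells held 0.271, 0.308 and 0.213. The non-endocrine cells held 0.292 in WT, 0.0477 at 1 week and 0.0763 at 5 weeks. In each library the delta ratio stood above that of the beta, alpha and non-endocrine cells beyond counting error. In WT the alpha ratio of 0.271 (0.266–0.275) and the acinar ratio of 0.292 (0.280–0.304) both exceeded the beta ratio.

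**Figure D2:**
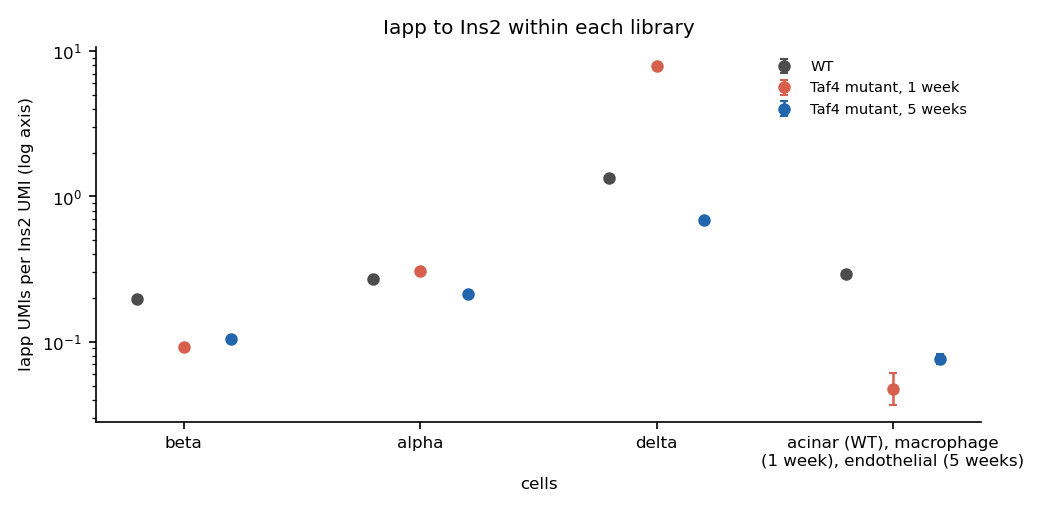
UMIs of *Iapp* per UMI of *Ins2* (log axis) in beta, alpha, delta and non-endocrine cells of each library, with 95% counting intervals. The delta points lie highest in all 3 libraries, and the beta point moves from 0.197 in WT to 0.0915 at 1 week and 0.105 at 5 weeks.

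As the classes were defined, *Iapp* also varied more from beta cell to beta cell in the mutants. To compare cells of unequal depth, each was thinned at random to 500 UMIs, so that 1 UMI is 0.2% of a cell. The middle 50% of WT beta cells held 6.8% to 9.8% *Iapp*, with a median of 8.2%. At 1 week the middle 50% held 1.2% to 4.2%, with a median of 2.6%, and at 5 weeks 3.2% to 7.4%, with a median of 5.2%. Most 1-week cells therefore lay below the lower quartile of WT, and the middle 50% at 5 weeks overlapped both of the others. Without thinning the medians were 8.16%, 2.58% and 5.24%. The squared coefficient of variation beyond counting went from 0.0653 in WT to 0.631 at 1 week, with 0.290 at 5 weeks, and with thinning to 1000 UMIs it was 0.0639, 0.667 and 0.275. In delta cells the same measure of *Iapp* was 0.115, 0.142 and 0.156, a narrower range over the libraries. In alpha cells, where the WT level was below that of the acinar cells, it was 0.526, 4.05 and 1.14. It was thus highest at 1 week in alpha cells as well as in beta cells. The beta class at 1 week had a lower *Ins2* limit than in the other libraries. The lower quartile of *Ins2* in thinned beta cells was 14.6% at 1 week against 40.4% in WT. No 1-week spread with the WT limits is given, so the part of the lower limit was not tested. Mixed-hormone cells were removed from WT only, and the part of that step was not tested either. No test of these spreads was made, since cells of 1 library are not replicates.

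*Iapp* levels also differed with depth within a library. In the shallowest, middle and deepest tercile of WT beta cells the level was 80074, 78989 and 93013 CPM. The corresponding terciles held 26008, 36310 and 33858 CPM at 1 week, and 46270, 54872 and 66204 CPM at 5 weeks. Every tercile of either mutant library was below every tercile of WT. At 5 weeks the span between terciles, taken as a ratio, was as large as the ratio of WT to that library, and in CPM it was smaller than the difference.

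*Ppy* and *Pyy* shared a pattern that differed from that of *Iapp*, with the highest levels in delta cells, intermediate levels in alpha cells and the lowest levels in beta cells of every library. In WT, *Pyy* was at 42787 CPM in delta, 19231 CPM in alpha and 335 CPM in beta cells. *Ppy* was at 18905 CPM in delta, 9935 CPM in alpha and 171 CPM in beta cells. *Pyy* thus exceeded *Ppy* in each WT class, with 0.442, 0.517 and 0.511 *Ppy* UMIs per *Pyy* UMI in delta, alpha and beta cells.

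Levels of these genes in delta cells were within 2-fold of WT in both mutants. *Pyy* in delta cells was at 44021 CPM at 1 week and 45566 CPM at 5 weeks, log2 ratios to WT of 0.04 and 0.09. *Ppy* in delta cells was at 27142 CPM at 1 week and 23201 CPM at 5 weeks, log2 ratios of 0.52 and 0.30. The 1-week values rest on 37 cells.

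In alpha cells the pair separated at 1 week. *Pyy* was at 6220 CPM, a log2 ratio to WT of −1.63 (−1.65 to −1.61), and *Ppy* was at 6377 CPM, a log2 ratio of −0.64. As a result the *Ppy* to *Pyy* ratio in alpha cells was 1.03 at 1 week against 0.517 in WT and 0.406 at 5 weeks. At 5 weeks *Pyy* was at 20660 CPM (log2 ratio 0.10) and *Ppy* at 8379 CPM (log2 ratio −0.25). At 1 week 1 of the 172 alpha cells held 4037 of the 23246 *Ppy* UMIs, and without the leading cell of each library the log2 ratio of *Ppy* was −0.88. Leaving out every cell that held 1% or more of *Ppy*, *Pyy*, *Npy* or *Ghrl* kept 1172 of 2772 alpha cells in WT, 128 of 172 at 1 week and 1314 of 3011 at 5 weeks, and the log2 ratio of *Ppy* among those left was 0.73 at 1 week and 0.038 at 5 weeks. *Sst* in alpha cells was at 460 CPM in WT, 13.4 CPM at 1 week and 4919 CPM at 5 weeks, and its part in these levels was not tested.

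*Ppy* and *Pyy* in beta cells were lower than WT at 1 week and higher at 5 weeks. *Ppy* was at 171 CPM (165–178) in WT, 77.7 CPM (73.3–82.3) at 1 week and 557 CPM (549–566) at 5 weeks. *Pyy* was at 335 CPM (326–344), 77.6 CPM (73.2–82.2) and 1180 CPM (1167–1192). The log2 ratios to WT were −1.14 and 1.70 for *Ppy* and −2.11 and 1.81 for *Pyy* at 1 and 5 weeks. Those of *Gcg*, whose share the beta rule limits, were −2.95 and −0.46 in these cells. Those of *Sst* were −4.29 and 2.99. The lower level at 1 week was thus not particular to *Ppy* and *Pyy*. A single 1-week beta cell held 689 of the 1164 *Ppy* UMIs and 697 of the 1162 *Pyy* UMIs of its class. Without the leading cell of each library the 1-week log2 ratios were −2.27 for *Ppy* and −3.40 for *Pyy*.

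In WT and at 1 week these levels did not exceed those of cells that should lack the hormones. WT acinar cells had 557 CPM *Ppy* and 1399 CPM *Pyy*, above the beta cells, with a *Ppy* UMI in 29.7% of them against 10.8% of beta cells. The 1-week macrophages had 109 CPM *Ppy* and 87.4 CPM *Pyy*, from 10 and 8 UMIs, at or above the beta cells. At 5 weeks the endothelial cells had 192 CPM *Ppy* and 299 CPM *Pyy*, below the 557 and 1180 CPM of the beta cells, with a *Pyy* UMI in 32.9% of endothelial and 46.5% of beta cells. The WT and 1-week levels in beta cells were thus not shown to exceed background, and those of the whole class stood above the endothelial cells at 5 weeks. At 1 week median depths were 24764 UMIs in beta cells and 789 UMIs in the macrophages. Per cell, these beta cells held 2.07 UMIs each of *Ppy* and *Pyy*, leading cell included, against 0.588 and 0.471 in the macrophages. That leading cell held 689 of the 1164 *Ppy* UMIs and 697 of the 1162 *Pyy* UMIs. The 17 macrophages held 91506 UMIs in all, so their depth was uneven. The comparison therefore places the 1-week beta levels neither at nor above background, and in WT the acinar cells may overstate the background. With cells thinned to 500 UMIs, *Ppy* was seen in 4.03%, 2.5% and 10.2% of beta cells of the WT, 1-week and 5-week libraries, and *Pyy* in 8.73%, 2.85% and 17.4%.

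Most of the *Ppy* and *Pyy* UMIs of 5-week beta cells lay in cells that also held *Sst*. The 519 beta cells with 0.5% or more *Sst*, 9.34% of the class, held 73.8% of its *Ppy* UMIs and 74.3% of its *Pyy* UMIs, at 4292 CPM *Ppy* and 9143 CPM *Pyy* and a median of 4687 UMIs. The WT library had 17 such cells (0.206%), with 2634 CPM *Ppy* and 4290 CPM *Pyy*, and the 1-week library had 0 of 561. In the 4819 beta cells of the 5-week library with under 0.5% *Sst* and under 0.5% *Gcg*, *Ppy* was at 147 CPM (142–152) and *Pyy* at 272 CPM (266–279). These levels, of 86.7% of the 5-week class, were below the 192 and 299 CPM of the endothelial cells. Median depths were 3822 UMIs in these beta cells and 1199 UMIs in the endothelial cells. At such unlike depths the CPM values do not show whether these beta cells stood above background. The matching 7858 WT cells had 124 CPM *Ppy* and 218 CPM *Pyy*. With this limit, which was set after the values were seen, the 5-week log2 ratios of *Ppy* and *Pyy* were 0.25 and 0.32 in place of 1.70 and 1.81, and those at 1 week were −0.67 and −1.49. Mixed-hormone cells were removed from WT alone, so 2 cells in 1 droplet and cells that made both hormones cannot be told apart here.

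**Figure D3:**
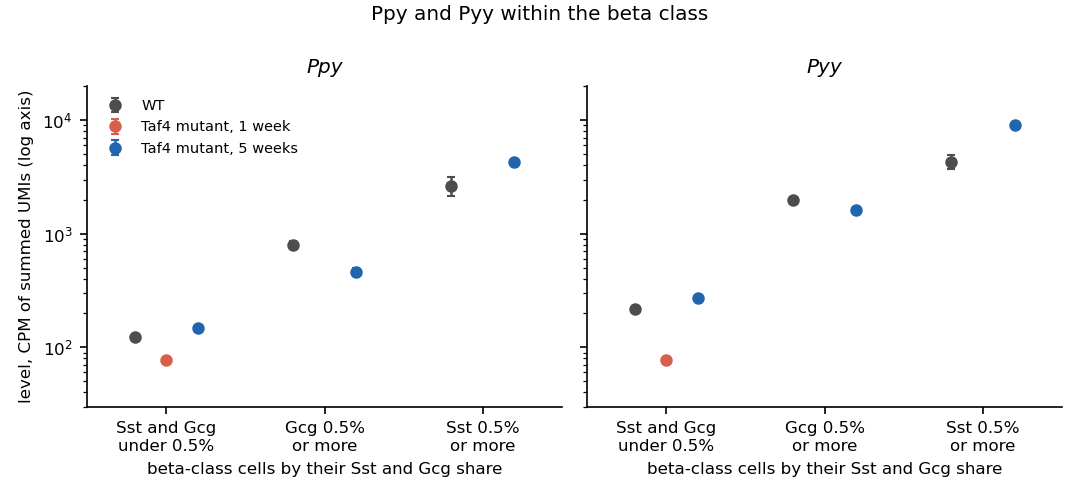
Levels of *Ppy* and *Pyy* (CPM, log axis) in beta cells grouped by their share of *Sst* and *Gcg*, in each library, with 95% counting intervals. Beta cells with 0.5% or more *Sst* stand highest at 5 weeks (4292 and 9143 CPM), while those low in both hormones have 147 and 272 CPM, near the 124 and 218 CPM of WT.

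Cells rich in *Ppy* or *Pyy* were found in every library, and few were beta cells. *Ppy* took 1% or more of the UMIs of 1069 WT barcodes (8.91%), 75 at 1 week (3.27%) and 1649 at 5 weeks (14.7%). Of the WT cells 656 were alpha, 340 delta and 18 beta cells and 55 had no class. Of the 5-week cells 594 were alpha, 768 delta, 100 beta and 47 doubly defined cells and 140 had no class. *Pyy* passed the same share in 2227 WT barcodes (18.6%), 105 at 1 week (4.58%) and 3546 at 5 weeks (31.6%). Alpha cells made up the largest group of the *Pyy*-rich cells in WT (1516) and at 5 weeks (1654).

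Cells with *Ppy* as a leading transcript were rare. *Ppy* made up 10% or more of the UMIs in 57 WT barcodes (0.475%, 0.360%–0.615%), 3 at 1 week (0.131%, 0.0270%–0.382%) and 45 at 5 weeks (0.401%, 0.292%–0.536%). The intervals of WT and 5 weeks overlap. In WT 37 of these cells were alpha, 3 delta and 1 beta cells, and 16 had no class. Over all 57 of them *Gcg* was at 187752 CPM and *Ppy* at 169688 CPM. The highest share of *Ppy* in any cell was 55.3% in the WT, 32.4% in the 1-week and 38.9% in the 5-week library. The alpha definition itself asks for 15% or more *Gcg*. Of the other PP cell markers, *Aqp3* had no UMI in any class, and the summed level of the list without *Ppy* was 789, 1041 and 777 CPM in delta cells, 474, 257 and 289 CPM in alpha cells and 22.8, 6.34 and 27.7 CPM in beta cells of WT, 1 week and 5 weeks.

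*Ppy* and *Pyy* occurred together in alpha cells. In WT 682 alpha cells (24.6%) held 1% or more *Ppy* after thinning, and 88.0% (85.3%–90.3%) of them also held 1% or more *Pyy*, against 46.6% (44.5%–48.8%) of the other alpha cells. The corresponding shares at 5 weeks were 91.6% and 48.0%, with 653 *Ppy*-rich cells. At 1 week they were 36.4% (20.4%–54.9%) and 18.0% (12.0%–25.4%), with 33 *Ppy*-rich cells, and these intervals overlap. In delta cells nearly every cell held 1% or more *Pyy* whether or not it was rich in *Ppy*, with 99.4% against 94.8% in WT.

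*Ppy* was less evenly spread over alpha cells than *Pyy*. The squared variation beyond counting of *Ppy* in alpha cells was 4.89, 5.81 and 4.75 in the WT, 1-week and 5-week libraries, and that of *Pyy* was 1.2, 1.9 and 1.2. In delta cells it was 1.10, 1.11 and 0.941 for *Ppy* and 0.264, 0.792 and 0.329 for *Pyy*. The values of *Ppy* were close in the 3 libraries, and those of *Pyy* were highest at 1 week in both classes.

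**Figure D4:**
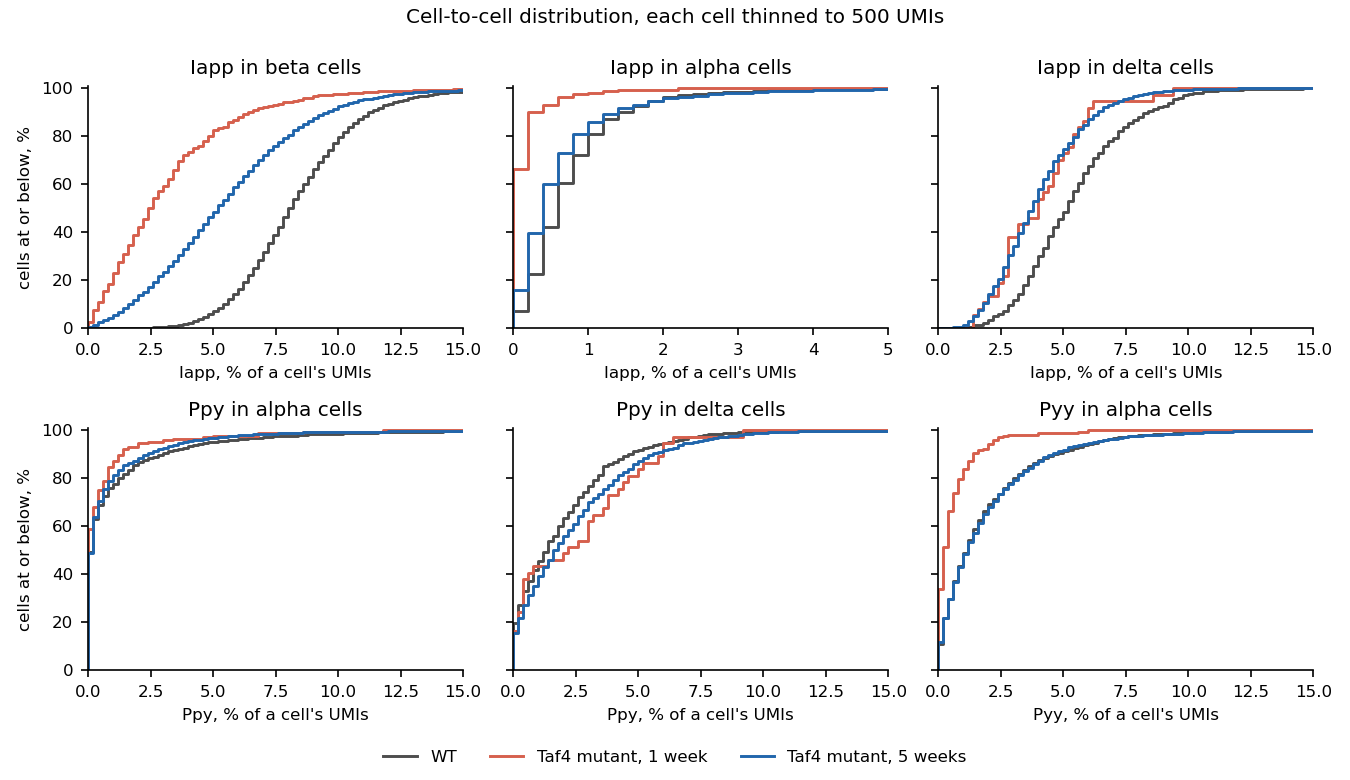
Cumulative percent of cells against the percent of a cell's UMIs, thinned to 500, taken by *Iapp* in beta, alpha and delta cells, *Ppy* in alpha and delta cells and *Pyy* in alpha cells, with 1 line per library. The *Iapp* curve of beta cells shifts left and widens at 1 week (median 2.6% against 8.2% in WT), with that of 5 weeks (5.2%) between. The *Ins2* limit of the beta class was lower at 1 week than in the other libraries.

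*Npy* was the member with the largest fall in mutant beta cells. WT beta cells had 1450 UMIs of *Npy* (90.4 CPM, 85.8–95.2), 1-week beta cells 62 (4.14 CPM, 3.17–5.31) and 5-week beta cells 58 (2.10 CPM, 1.60–2.72). The log2 ratios to WT were −4.45 (−4.84 to −4.08) and −5.43 (−5.83 to −5.05), levels 21.8-fold and 43.0-fold below WT. At 1 week a single beta cell held 34 of the 62 UMIs, and without the leading cell of each library that ratio was −5.57. The share of beta cells with a UMI was 6.76% in WT (559 of 8269 cells) and 0.576% at 5 weeks (32 of 5557 cells), although the 5-week cells were deeper. At 1 week it was 1.43% (8 of 561 cells) at a median depth of 24764 UMIs. With every cell thinned to 500 UMIs the shares were 2.73%, 0.178% (1 cell) and 0.0900% (5 cells) in WT, at 1 week and at 5 weeks. WT acinar cells had 1 UMI of *Npy* in 64 cells (6.06 CPM), and 5-week endothelial cells had none in 173 cells, which allows a share of up to 1.73%. The WT beta level stood above the acinar level, and the 5-week share is within what the endothelial count allows.

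*Npy* was concentrated in a minority of WT beta cells. The 296 cells with 2 or more UMIs, 3.58% of the class, held 81.9% of its *Npy* UMIs. Their levels of *Iapp* (90781 CPM), *Ins2* (436525 CPM) and *Ins1* (162940 CPM) were near those of the 7710 beta cells without an *Npy* UMI (85725, 437713 and 153136 CPM), at median depths of 2352 and 1620 UMIs. An even spread of the thinned level would give a UMI in 4.02% of WT beta cells, more than the 2.73% seen. In the mutants 4 beta cells at 1 week held 93.5% of the *Npy* UMIs, and 9 cells at 5 weeks held 60.3%. The barcode with most *Npy* was a WT cell of no class, with 73 of 748 UMIs (9.76%).

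Outside beta cells *Npy* rested on few molecules. Delta cells had 27 UMIs in WT (61.6 CPM, 40.6–89.6), 38 at 1 week (61.1 CPM), all in 1 cell, and 16 at 5 weeks (10.3 CPM, 5.91–16.8). The log2 ratio to WT in delta cells was −0.01 (−0.76 to 0.76) at 1 week and −2.57 (−3.56 to −1.63) at 5 weeks. Without the 1 cell no *Npy* UMI was left in delta cells at 1 week, and with 3 UMIs as the limit of a count of 0 the log2 ratio was −3.30 or lower. Alpha cells had 8, 2 and 12 UMIs (3.39, 0.549 and 2.01 CPM), log2 ratios of −2.63 (−5.90 to −0.30) and −0.76 (−2.17 to 0.74). In alpha cells a change at 5 weeks was not detectable at this depth.

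*Ghrl* came almost wholly from 1 cell of the 5-week library. Its counts in beta, alpha and delta cells were 1, 0 and 1 UMIs in WT, 0, 0 and 0 at 1 week, and 3, 2 and 839 at 5 weeks. Taken as 3 counts, the limit of a count of 0 is 1.27 CPM in WT alpha cells, and 0.2, 0.823 and 4.82 CPM in beta, alpha and delta cells at 1 week. Of the 839 UMIs, 837 were in 1 cell of the delta class, in which *Ghrl* was 16.0% of 5236 UMIs beside 483 UMIs of *Sst*, 188 of *Pyy* and 113 of *Ppy*. That cell held 99.2% of the 844 *Ghrl* UMIs of the library, and it had no UMI of the other 3 epsilon cell markers in the list (*Acsl1*, *Spink1* and *Anxa13*). The log2 ratio of 7.89 (5.41–13.20) in delta cells, with 1 UMI in WT, is therefore a statement about 1 cell, and without it 2 UMIs remained.

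Set beside all genes, the fall of *Iapp* and *Npy* in beta cells at 1 week went against the general direction. Of 11637 genes with 20 UMIs or more in WT and 1-week beta cells together, 55% were 2-fold or more higher at 1 week and 3.89% were 2-fold or more lower. All 4 members tested, *Iapp*, *Npy*, *Ppy* and *Pyy*, were among the lower genes. *Ppy* and *Pyy* were not shown to exceed background in either library, so their calls are not read as changes of beta cells. The median log2 ratio of all genes was 1.10 in these cells. With hormone and mitochondrial genes left out of the total, that median was 0.48, and 2980 genes were higher and 882 lower in place of 6398 and 453, so higher genes made up 77.2% of the calls in place of 93.4%. Relative to the median of all genes, which no choice of total alters, the log2 ratios were −2.47 for *Iapp*, −5.55 for *Npy*, −2.24 for *Ppy* and −3.21 for *Pyy*. Only 2.78% of genes had a lower ratio than *Iapp*.

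In alpha cells at 1 week 33.4% of 9878 genes were 2-fold or more higher and 6.23% lower, and 2 of the 3 members tested, *Iapp* and *Pyy*, were lower. The WT level of *Iapp* in alpha cells was below that of the acinar cells. Its call is therefore not read as a change of alpha cells. The log2 ratio of *Ins2*, whose share the alpha rule limits, was −2.69 in alpha cells, beside −2.51 for *Iapp*. In delta cells at 1 week 27.3% of 6079 genes were higher and 3.27% lower, and 0 of 4 members passed either limit. The medians of all genes were 0.63 and 0.53 there, and 0.30 and 0.26 with hormone and mitochondrial genes left out of the total. That choice changed the calls in alpha cells from 3302 higher and 615 lower to 2147 and 946 (84.3% to 69.4% higher), and in delta cells from 1659 and 199 to 1106 and 318 (89.3% to 77.7% higher). Relative to the median, *Pyy* in alpha cells was at −2.25, *Ppy* at −1.27 and *Iapp* at −3.13, and in delta cells *Iapp* was at −0.82, *Npy* at −0.54, *Pyy* at −0.49 and *Ppy* at −0.01. In delta cells the direction of *Ppy* and *Pyy* thus depended on the scale.

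At 5 weeks the libraries were closer and the median of all genes was 0.16, 0.10 and 0.18 in beta, alpha and delta cells. In beta cells 8.94% of 11851 genes were 2-fold or more higher and 6.28% lower, and of the 4 members tested *Ppy* and *Pyy* were higher and *Npy* lower. The 2 higher members became 0 when beta cells with 0.5% or more *Sst* or *Gcg* were left out. In alpha cells 7.58% of 10299 genes were higher and 2.11% lower, with 0 of 4 members. In delta cells 11.8% of 7803 genes were higher and 2.49% lower, with *Ghrl* higher and *Npy* lower among the 5 members. Relative to the median, beta cells had −0.67 for *Iapp*, −5.58 for *Npy*, 1.54 for *Ppy* and 1.66 for *Pyy*. A ratio lower than that of *Iapp* was found in 15% of genes, and one lower than that of *Npy* in 0.0506%.

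Genes that make, cut or receive these peptides were followed as lists. Of 9 peptide-processing genes, which include the prohormone convertases and carboxypeptidase E, 8 had enough UMIs in beta cells. At 1 week 2 were 2-fold or more higher there, the peptidase genes *Dpp4* (log2 ratio 1.34) and *Ide* (1.25), and 0 were lower, beside 55% and 3.89% of all genes, with a list median of 0.50 against 1.10 over all genes. At 5 weeks 0 were higher and 1 was lower, beside 8.94% and 6.28% of all genes, with a median of −0.29 against 0.16. The lower gene was *Pcsk1n*, which encodes an inhibitor of prohormone convertase 1 (−1.39). *Pcsk1*, the convertase itself, was at 139, 163 and 145 CPM in WT, 1-week and 5-week beta cells. In alpha cells *Pcsk1n* was lower at both times, at 10444 CPM in WT and 4555 and 4562 CPM in the mutants.

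Receptor genes were barely detected. Of 11 genes for receptors of amylin, Y peptides and ghrelin and their accessory proteins, 2 or 3 had enough UMIs in any class. *Ramp1*, an accessory protein of the amylin receptor, was at 19.6 CPM in WT beta cells, 1.67 CPM at 1 week and 6.20 CPM at 5 weeks, log2 ratios of −3.55 and −1.66. *Ramp2* rested on 76, 84 and 285 UMIs in these cells, log2 ratios of 0.24 and 1.13. The list median in beta cells was −1.65 at 1 week and −0.27 at 5 weeks, from 2 genes.

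Other peptide genes of beta cells moved in both directions. Of 22 listed genes 8 could be compared at 1 week, with 3 higher and 3 lower, beside 55% and 3.89% of all genes (median −0.08 against 1.10). At 5 weeks 9 could be compared, with 2 higher and 3 lower, beside 8.94% and 6.28% of all genes (median −0.78 against 0.16). *Ucn3*, the urocortin of mature beta cells, was at 134 CPM in WT, 41.9 CPM at 1 week and 7.47 CPM at 5 weeks. *Gal*, which encodes galanin, had 59 UMIs in WT, 1 at 1 week and 8 at 5 weeks, and *Pdyn*, which encodes prodynorphin, had 308, 75 and 116. *Vgf*, a granule protein gene, was at 3.68, 41.1 and 48.7 CPM. The fall of *Npy* was thus larger in log2 ratio at 5 weeks than those of *Ucn3* (−4.17) and *Gal* (−3.66), and at 1 week smaller than that of *Gal* (−5.78, from 1 UMI).

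In alpha cells 1 of the other peptide genes was higher and 4 were lower of 9 at 1 week, beside 33.4% and 6.23% of all genes (median −0.60 against 0.63). At 5 weeks it was 0 and 2 of 8, beside 7.58% and 2.11% (median −0.26 against 0.10). In delta cells *Pdyn* alone passed 2-fold, with 30 UMIs in WT, 9 at 1 week and 15 at 5 weeks, of 2 and 3 genes compared. Of all genes 3.27% and 2.49% were lower there. Of 16 transcription factor genes known to set islet hormones, 4 were higher and 2 lower of 14 in beta cells at 1 week, beside 55% and 3.89% of all genes (median 0.42 against 1.10). At 5 weeks 2 were higher and 0 lower of 15, beside 8.94% and 6.28% of all genes (median −0.21 against 0.16). *Mafa*, an activator of insulin genes, was at 129 CPM in WT beta cells, 407 CPM at 1 week and 209 CPM at 5 weeks, and *Pdx1*, a regulator of insulin and *Iapp*, was at 36.0, 117 and 83.2 CPM. The log2 ratios of *Mafa* and *Pdx1* at 1 week, 1.66 and 1.70, compare with the median of 1.10 over all genes. *Hhex*, a factor of delta cells, was at 1.18, 0.467 and 6.06 CPM in beta cells and rested on 1 UMI in WT and 80 at 5 weeks in alpha cells.

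Over the 9 levels of 3 classes and 3 libraries, the genes most like each member were found by Pearson's r of log2(CPM + 10), given without a test because levels of 1 library share their depth and their free RNA. *Iapp* was most like *Enho* (0.98), *Spcs3* (0.94) and *Spcs2* (0.94), of which *Spcs2* and *Spcs3* encode subunits of the signal peptidase. *Ppy* was most like *Pyy* (0.99), *Rbp4* (0.98) and *Calb1* (0.98), and *Pyy* was most like *Ppy*, *Rbp4* (0.97) and *Calb1* (0.96). *Rbp4* is itself on the delta marker list. *Npy* was most like *Th* (0.96), *Fcer1g* (0.96) and *Aqp4* (0.93), each with under 300 UMIs. For *Ghrl* the value rests on 1 cell and names *Gm10069*, *Gm26759* and *Enkur*. Between members r was −0.29 for *Iapp* and *Ppy*, −0.22 for *Iapp* and *Pyy* and 0.64 for *Iapp* and *Npy*.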

How the data were processed

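Islets were dissociated, live cells were sorted and captured on the 10X Genomics platform, and 3′ libraries were sequenced, 1 per condition. The deposited values are raw UMI counts per gene and cell, made by the authors with Cell Ranger 3.1 on mm10. The submitters' processing notes also name bcl2fastq 2.17.1.14 and Seurat 3.1.4. By the study's methods, doublets and mixed-hormone cells were removed from WT, which was reduced to 12000 cells, and from neither mutant.

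The members and the gene lists were chosen with earlier results of these data known. Classes followed the limits on *Ins2*, *Gcg* and *Sst* given in the report, and doubly defined cells were left out. No doublet caller was run. UMIs were summed per class and library and divided by all UMIs of the class. Intervals are exact (Poisson for levels, Clopper-Pearson for shares, conditional binomial for ratios) at 95%. No p-value was computed. All genes with 20 UMIs or more in both libraries together gave the background of 2-fold changes, and a count of 0 was set to 3 counts. Spreads used cells thinned to 500 UMIs. Cells with 10% or more acinar, or 1% or more endothelial or macrophage marker UMIs and no class, served as cells that should lack the hormones. Named genes were the members, *Ins1*, *Ins2*, *Gcg* and *Sst*, the list genes past 2-fold with most UMIs, and the 3 genes most like each member over the 9 levels among those with 100 UMIs or more. Promoter windows are from RefSeq, GRCm38.p6, the assembly of mm10, and all 5 members matched by symbol. Alternatives changed the denominator, the class limits, the depth and gene-number filters, the minimum count, the fold and the treatment of doubly defined, hormone-rich or single leading cells. The computations, tested on simulated data, used numpy 2.4.6, scipy 1.17.1 and Python 3.11.15.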

Additional observations from a re-analysis of the deposited data

Results flagged for a closer look

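*Ppy* in beta cells had a log2 ratio to WT of −1.14 at 1 week and 1.70 at 5 weeks, a difference of 2.84 with opposite signs, and *Pyy* had −2.11 and 1.81, a difference of 3.93. Both ratios share the WT library and each time has 1 library, so these differences were not tested. Among beta cells with under 0.5% *Sst* and under 0.5% *Gcg* the values were −0.67 and 0.25 for *Ppy* and −1.49 and 0.32 for *Pyy*. The WT and 1-week levels, and at 5 weeks those of this subset (147 CPM *Ppy* and 272 CPM *Pyy* against 192 and 299 CPM in endothelial cells), lay at or below those of non-endocrine cells of the same library. The depth of those cells differed from that of the beta cells, so this order does not place the beta levels at background.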

How the results depend on the processing

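No paired analysis was possible because each condition has 1 library, and for the same reason no replicate could be left out. The fall of *Iapp* and *Npy* in beta cells kept its sign under every alternative run. For *Iapp* at 1 week (−1.37) the log2 ratio was −1.99 with hormone and mitochondrial genes out of the total, −1.42 as a mean over cells, −1.43 with thinned cells, −4.08 with cells of 200 to 1500 genes (17 beta cells at 1 week), −1.43 with the WT class limits, −1.35 with the *Sst* and *Gcg* limit and −1.37 without the leading cell. For *Iapp* at 5 weeks (−0.51) it was −0.52 with doubly defined cells, −0.49, −0.61, −0.60 and −0.63 under the first 4 of those alternatives, −0.50 without hormone-rich cells and −0.49 with the *Sst* and *Gcg* limit. For *Npy* at 1 week (−4.45) it was −5.07 with the reduced total, −4.89 as a mean over cells, −2.22 as an upper bound with cells of 200 to 1500 genes (no UMI in 17 cells) and −5.57 without the leading cell, and at 5 weeks (−5.43) it was −6.00 with cells of 200 to 1500 genes. In alpha and delta cells at 1 week that filter left 1 cell each and gave no value. The *Sst* and *Gcg* limit and the removal of the leading cell were chosen after seeing the data.

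Signs turned for *Ppy* in alpha cells without hormone-rich cells (0.73 at 1 week and 0.038 at 5 weeks). That filter removes cells by their own *Ppy* and *Pyy* share, and it kept unlike shares of the alpha cells in each library. It is therefore no independent check of the sign of *Ppy*. They turned for *Pyy* in delta cells at 1 week with the reduced total (−0.23), as a mean over cells (−0.11), thinned (−0.12), in cells of 1000 UMIs or more (−0.037) and without the leading cell (−0.067), and at 5 weeks with doubly defined cells (−0.047). For *Npy* in delta cells at 1 week (−0.01, from 1 cell) the value was 0.89 thinned, 0.93 with the WT limits, 0.72 in cells of 1000 UMIs or more, −1.06 as a mean over cells and −3.30 as an upper bound without that cell. The cause was not tested. Of the 25 ratios, the sign was kept in 24 with doubly defined cells, 24 with the reduced total, 24 as a mean over cells and 24 with the WT limits. It was kept in 22 of 24 with thinned cells and with cells of 1000 UMIs or more, 17 of 19 without hormone-rich cells and 23 of 24 without the leading cell.

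Counts of members past 2-fold changed in alpha cells at 1 week (lower: 1 in place of 2, without hormone-rich cells) and in delta cells at 1 week (lower: 1 in place of 0, as a mean over cells or without the leading cell). At 5 weeks the 2 higher members in beta cells became 0 with the *Sst* and *Gcg* limit, 1 member in alpha cells was lower at 1.5-fold, and in delta cells the higher member was lost (0) with cells of 200 to 1500 genes, without hormone-rich cells or without the leading cell, and the lower one (0) with cells of 1000 UMIs or more or without hormone-rich cells.

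Of all genes, with 100 UMIs or more required, the counts higher and lower were 227 lower in beta, 1692 and 255 in alpha and 271 and 72 in delta cells at 1 week, and 557 and 401 in beta, 167 and 78 in alpha and 105 and 39 in delta cells at 5 weeks. With every gene seen in both libraries they were 746 lower in beta, 1187 lower in alpha and 3238 and 742 in delta cells at 1 week, and 1280 lower in beta, 1207 and 805 in alpha and 1429 and 1014 in delta cells at 5 weeks. With the reduced total they were 2980 and 882 in beta, 2147 and 946 in alpha and 1106 and 318 in delta cells at 1 week. Cells rich in *Ppy* numbered 683, 40 and 1045 at a limit of 2% and 139 at 1 week at 0.5%, and those rich in *Pyy* at 1 week 58 and 224.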

Other observations

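Within the 1-week library, beta cells were also ordered by their share of *Iapp* and split into 4 equal groups, and the genes given here were chosen after their values were seen. The lowest group (141 cells, 7570 CPM *Iapp*) had 3637 CPM *Ddit3*, a stress-induced transcription factor gene, against 706 CPM in the highest group (63694 CPM *Iapp*). *Mafa* was at 237 and 605 CPM, *Ucn3* at 23.8 and 58.7 CPM and *G6pc2*, a glucose phosphatase gene of beta cells, at 27.8 and 130 CPM. Median UMIs were 12829 and 25639, so depth moved with the same order and its part was not tested. In WT the lowest and highest groups had 58.3 and 35.5 CPM *Ddit3* at median depths of 1491 and 2057 UMIs, and at 5 weeks 225 and 156 CPM at 2860 and 4840 UMIs. At 5 weeks the lowest group also had more *Ppy* (923 against 314 CPM) and more *Sst* (3073 against 1127 CPM). *Mafa* was near equal in the lowest and highest groups of WT (126 and 127 CPM) and ran the other way at 5 weeks (244 and 187 CPM). No test was made between cells of 1 library.

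The 1415 barcodes of the 1-week library that fell under 5000 UMIs, at a median of 633 UMIs, held *Iapp* at 10573 CPM, *Pyy* at 1191 CPM, *Ppy* at 755 CPM and *Npy* at 3.00 CPM, with no UMI of *Ghrl*.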
